A study of Mus musculus with 45 samples.

Results

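The lower of the study's 2 doses of bisphenol A, 10 µM, was compared with vehicle in mouse forelimb buds kept in organ culture, over all 3 culture times in a single fit. The libraries were chosen by their labels: all 15 libraries of the 10 µM groups and all 15 vehicle libraries, 30 of the 45 libraries of the series. The tissue was the forelimb of CD1 mouse embryos, an outbred stock, taken on gestation day 13. Per the labels, limbs were pooled, with male and female limbs in the same cultures. Vehicle groups received dimethyl sulfoxide (DMSO) and treated groups bisphenol A, each for 3, 24 or 48 h with 5 libraries per group, in a BGJb-based medium. The times are those of the titles, whereas the general treatment text of all 45 libraries reads 3 hours. Since nothing in the labels links the 5 libraries of a group to different litters or days of culture, the p-values reflect only library-to-library spread, and part of that may be technical. The series' title names endochondral ossification as the process of interest, and the comparison asks what the low dose changed on average over the culture times. A call does not require a change at each time. The 15 libraries at 10 µM held 17.54 to 27.12 M counts in genes (median 21.18 M) and the 15 vehicle libraries 17.55 to 24.77 M (median 20.61).

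Bisphenol A is a plastics monomer known for weak binding to estrogen receptors. In the forelimb bud, condensed mesenchyme becomes cartilage, cartilage cells proliferate and then enlarge (hypertrophy), and bone replaces them. BMP, retinoic acid, FGF and Hedgehog signals set the pace of those steps, and proliferating and enlarging cells depend on the endoplasmic reticulum, where matrix proteins are folded and where a sterol sensor holds or releases the SREBP transcription factors that switch on cholesterol genes.

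Levels are given in CPM, a gene's count divided by its library's total in M counts after TMM scaling, and a level is comparable between libraries for a given gene but not between genes, since it is not divided by gene length. Called, risen and fallen are used only of genes with an adjusted p under 0.05 in edgeR's quasi-likelihood test (Benjamini-Hochberg adjustment over all genes tested). The tissue matched its label: Tbx5, the forelimb regulator, lay between 200 and 315 CPM in vehicle and between 207 and 314 CPM at 10 µM, while the hindlimb regulators Tbx4 and Pitx1 lay between 16.7 and 27.7 CPM and between 1.61 and 7.28 CPM over all 30 libraries. Hours in culture separated the libraries most (99.1% of the first principal component, which took 31.2% of the variance). In bulk tissue, a change in the share of a cell type and a change in RNA per cell cannot be told apart.

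Over the 3 times, 60 of 18775 genes were called (0.32% of genes tested, either direction), 51 higher (0.272%) and 9 lower (0.0479%). The changes were small. Log2 fold changes of the 51 that rose ran from 0.15 to 0.91 with a median of 0.28, a 1.21-fold rise, and those of the 9 that fell had a median of -0.37, a 1.29-fold fall. Of the 60, 55 changed by less than 0.5 on the log2 scale, all 60 are annotated as protein coding, and the median over all genes tested was -0.001. Of all 18775 genes, 1180 had an unadjusted p under 0.05 (6.28%) and 9249 a positive log2 fold change. Without overlap of the 5 treated and 5 vehicle libraries, 131, 81 and 121 of all genes lay above vehicle at 3, 24 and 48 h (0.698%, 0.431% and 0.644%) and 75, 79 and 109 below it (0.399%, 0.421% and 0.581%), and 21 lay above (0.112%) and 5 below (0.0266%) at 2 or more times. Of the 51 that rose 38 stood apart at 1 or more times and 15 at 2 or more, and of the 9 that fell 9 and 3, which follows in part from how they were called. Among the genes that rose were enzymes and regulators of cholesterol synthesis, chaperones of the endoplasmic reticulum, BMP and retinoic acid target genes, and the skeletal genes Fgfr3 and Ihh. Among those that fell were Cpt1a and Angptl4, genes of fatty acid use, and the sterol exporter Abcg1.

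**Figure D1:**
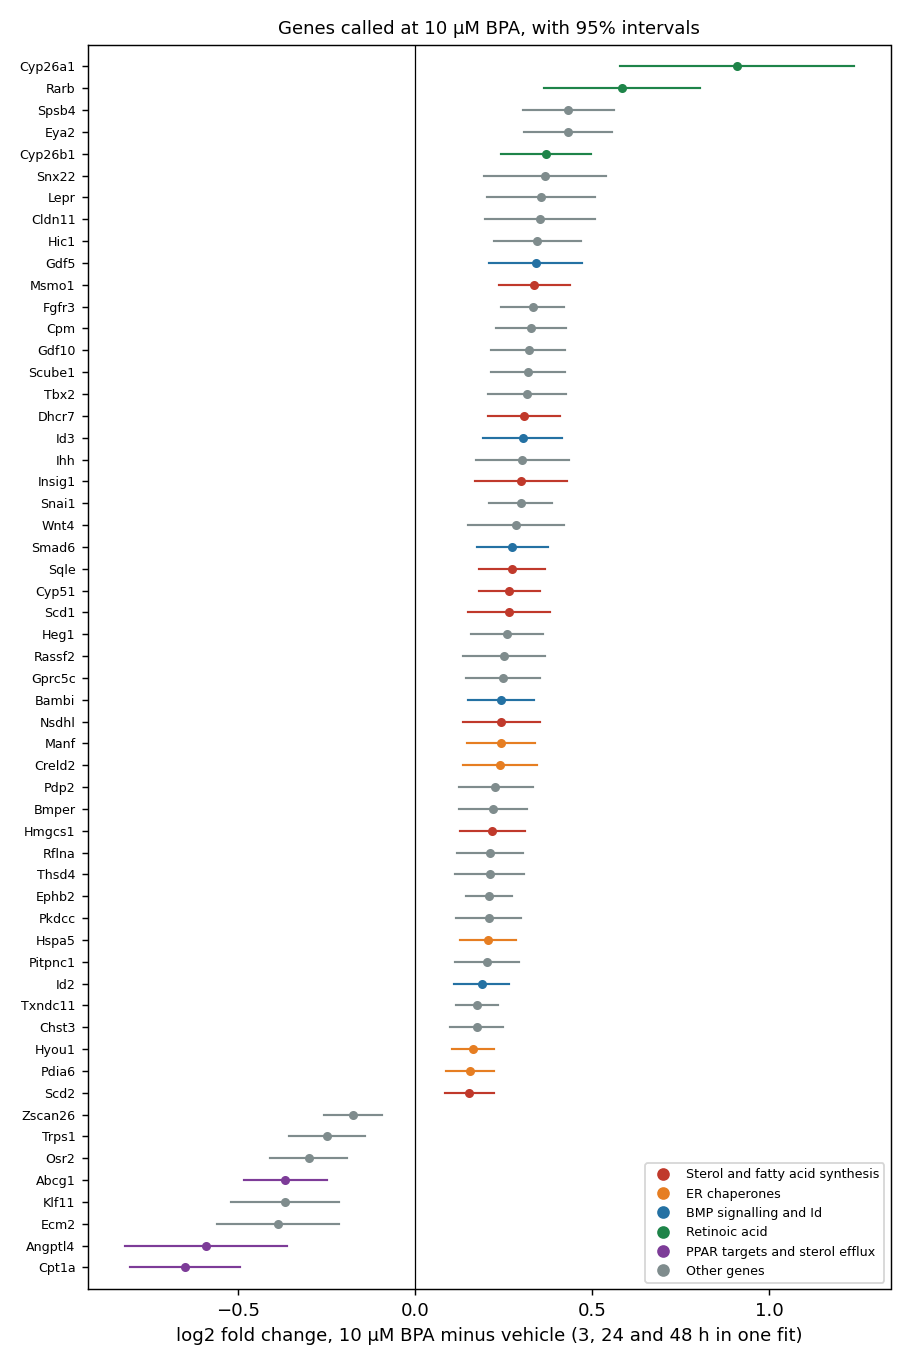
Each row is a called gene (56 of the 60 are drawn), and the point and line give its log2 fold change (10 µM minus vehicle, 3 times in one fit) with the 95% interval from the edgeR fit, coloured by gene group. Cyp26a1 lies farthest to the right at 0.91 and Cpt1a farthest to the left at -0.65.

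Cholesterol synthesis was the gene group with the most calls. Of 28 measured genes of cholesterol synthesis and uptake, 9 rose and none fell, 25 had a positive log2 fold change, 21 had an unadjusted p under 0.05, and the median was 0.20. Among the 9 were Hmgcs1, which makes HMG-CoA, Sqle, the squalene epoxidase, Cyp51, Msmo1 and Nsdhl, which strip methyl groups from lanosterol and its products, Dhcr7, a late reductase of the pathway, and Insig1, the sterol-sensing anchor of the SREBP machinery. Nsdhl is named here after its values were seen. The lowest estimate of the list was that of Ggps1, which makes a prenyl lipid for protein modification, at -0.04, and the highest was that of Fdps, a prenyl synthase, at 0.41 (log2; edgeR adjusted p = 0.11), which DESeq2 called.

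Msmo1 (chromosome 8, 64718139 to 64733792 in mm10, minus strand) had the largest estimate of the 9 called genes, above the list median of 0.20. At 3 h the 5 vehicle libraries held 45.2, 53.8, 53.5, 46.02 and 45.5 CPM and the 5 libraries at 10 µM 61.97, 82.4, 69.99, 66.6 and 67.9 CPM. At 24 h vehicle held 82.9, 76.97, 75.7, 79.4 and 70.5 CPM and 10 µM 95.97, 86.3, 76.8, 82.7 and 85.7 CPM. At 48 h vehicle held 66.97, 60.95, 65.9, 58.8 and 69.4 CPM and 10 µM 77.7, 90.1, 76.4, 78.5 and 86.8 CPM. Every treated library lay above every vehicle library at 3 and at 48 h, and the groups overlapped at 24 h. Over the 3 times Msmo1 rose 1.26-fold (log2 0.34 ± 0.05, the error being the SE of the fit; edgeR adjusted p = 0.000243).

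Dhcr7 held 50.7, 53.9, 47.9, 45.02 and 48.9 CPM in vehicle at 3 h and 65.3, 74.8, 71.7, 68.6 and 71.8 CPM at 10 µM. At 24 h the values were 67.9, 61.8, 69.6, 71.7 and 65.6 CPM in vehicle and 79.3, 78.8, 65.2, 73.3 and 81.4 CPM at 10 µM, and at 48 h 58.8, 59.6, 57.6, 56.2 and 53.1 and 52.7, 75.2, 70.3, 66.01 and 73.2 CPM. The Dhcr7 groups stood apart at 3 h and overlapped later, and at 48 h replicate 1 at 10 µM lay below every vehicle library while the other treated libraries lay above them. Dhcr7 rose 1.24-fold over the 3 times (log2 0.31 ± 0.05; edgeR adjusted p = 0.000723). Sqle rose 1.21-fold, Insig1 1.23-fold, Nsdhl 1.18-fold and Hmgcs1 1.16-fold. For Cyp51 the rise was 0.27 ± 0.04 on the log2 scale.

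The estimates of these sterol genes were largest early. In 8 of the 9 the fold change was largest at 3 h, and the median of the whole cholesterol list was 0.27 at 3 h, 0.07 at 24 h and 0.20 at 48 h, against 0.017, -0.002 and 0 for all genes tested. Insig1 ran from 0.58 at 3 h to 0.06 at 24 h and 0.27 at 48 h, and Nsdhl from 0.47 to 0.07 and 0.20. A test of whether the effect differed between the times (edgeR, 2 degrees of freedom) gave an unadjusted p under 0.05 for 7 of the 9, with 0.00174 for Insig1 and 0.0044 for Nsdhl, and none of them passed adjustment over all genes. When the 3 h libraries were left out, 3 of the 9 were still called, Msmo1 and Sqle among them, and 6 were not. List genes took 0.169 to 0.182% of the counts of the vehicle libraries at 3 h and 0.203 to 0.225% at 10 µM, without overlap. The shares overlapped at 24 h (0.202 to 0.231% and 0.211 to 0.24%) and did not at 48 h (0.174 to 0.185% and 0.189 to 0.219%).

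The promoter of Hmgcs1 holds the sterol regulatory element that SREBP factors bind, and it is printed here because 9 genes of the list rose. The window is the 250 bases before the RefSeq start site (GRCm38.p6, plus strand, chr13:119690101-119690350), written 5′ to 3′ with the match to TCACNCCAC in capitals, 137 to 129 bases before the start.
Hmgcs1: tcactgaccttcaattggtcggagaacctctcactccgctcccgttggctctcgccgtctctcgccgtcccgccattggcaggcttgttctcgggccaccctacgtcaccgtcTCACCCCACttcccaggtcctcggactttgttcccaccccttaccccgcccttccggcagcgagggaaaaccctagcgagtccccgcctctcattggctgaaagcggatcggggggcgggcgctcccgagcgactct
TCACNCCAC was searched on both strands and occurred in 346 of 32851 promoter windows of this length (1.05%). It was in 1 of the 6 called cholesterol genes matched to the promoter table and in 0 of 14 uncalled list members matched.

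Fatty acid genes gave fewer calls, 2 of 17, with a list median of 0.06. These were the desaturases that make oleate from stearate, Scd1, which rose (log2 0.27 ± 0.06; edgeR adjusted p = 0.0204), and Scd2, which rose 1.11-fold (log2 0.15 ± 0.03; edgeR adjusted p = 0.0225). Scd1 was at 56.3 ± 2.71 CPM in vehicle and 73.5 ± 13.3 CPM at 10 µM after 3 h, where replicate 3 at 10 µM, at 51.4 CPM, lay below every vehicle library. Scd2 was the more abundant in counts, at 1233 ± 47.2 CPM in vehicle and 1375 ± 78.7 CPM at 10 µM after 48 h.

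Sterol export went the other way in a single gene. Of 9 measured genes of sterol efflux and the LXR receptors, which respond to oxidised cholesterol, Abcg1 fell and none rose (list median -0.06). Abcg1, which moves cholesterol onto high-density lipoprotein, held 16.2, 16.02, 16.5, 15.8 and 18.3 CPM in vehicle and 15.4, 13.8, 10.97, 15.4 and 14.5 CPM at 10 µM at 3 h. At 24 h vehicle held 20.1, 22.6, 20.2, 21.2 and 21.8 CPM and 10 µM 15.96, 13.6, 18, 18.04 and 14.2 CPM, and at 48 h 22.7, 30.6, 26.5, 23.8 and 30.3 and 21.4, 17.4, 21.3, 18.5 and 19.4 CPM. All 5 treated libraries lay below all 5 vehicle libraries at each of the 3 times, which held for 2 genes of 18775 (0.0107%), Abcg1 and Cpt1a. Abcg1 fell 1.29-fold (log2 -0.37 ± 0.06; edgeR adjusted p = 0.000674), and Abca1, the partner exporter, was at -0.29 ± 0.08 without being called (edgeR adjusted p = 0.154), a fall that DESeq2 called.

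The strongest single result of the comparison was a fall of Cpt1a (chromosome 19, 3323301 to 3385732 in mm10, plus strand), the enzyme that commits long-chain fatty acids to import into mitochondria. At 3 h Cpt1a held 50.6, 41.2, 44.4, 44.1 and 46.9 CPM in vehicle and 36.4, 34.4, 32.1, 37.03 and 35.05 CPM at 10 µM. At 24 h it held 60.01, 107, 68.5, 67.01 and 71.7 CPM in vehicle and 46.2, 43.4, 52.2, 36.3 and 43.8 CPM at 10 µM. At 48 h it held 95.9, 79.1, 69.99, 58.4 and 67.2 CPM in vehicle and 42.99, 42.5, 46.9, 37.97 and 40.4 CPM at 10 µM. No treated library reached the lowest vehicle library at any of the times, and the vehicle level went up during culture while the treated level went from a mean of 35.01 to 42.1 CPM. Cpt1a fell 1.57-fold (log2 -0.65 ± 0.08; edgeR adjusted p = 1.62e-05), with estimates of -0.38, -0.76 and -0.81 at 3, 24 and 48 h.

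Of 23 measured PPAR targets of lipid uptake and oxidation 3 fell and none rose, with a list median of -0.05. Besides Cpt1a they included Angptl4, a secreted inhibitor of lipoprotein lipase. Angptl4 was at 34.3 ± 3.20, 58.7 ± 21.2 and 62.05 ± 23.04 CPM in vehicle and 29.4 ± 3.67, 35.1 ± 3.19 and 35.6 ± 5.51 CPM at 10 µM at the 3 times in order (SD, n = 5). It fell 1.51-fold (log2 -0.59 ± 0.11; edgeR adjusted p = 0.00564), with groups that did not overlap at 24 h. Acadm and Cpt2, enzymes of fatty acid oxidation, were at 0.01 and 0.01 on the log2 scale and were not called.

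Vehicle replicate 2 of 24 h was the highest vehicle library of that time for both Cpt1a and Angptl4, at 107 and 95.4 CPM. Without it the log2 fold changes of Cpt1a and Angptl4 were -0.59 and -0.51, and both were called (edgeR adjusted p = 3.58e-06 and 0.00687).

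**Figure D2:**
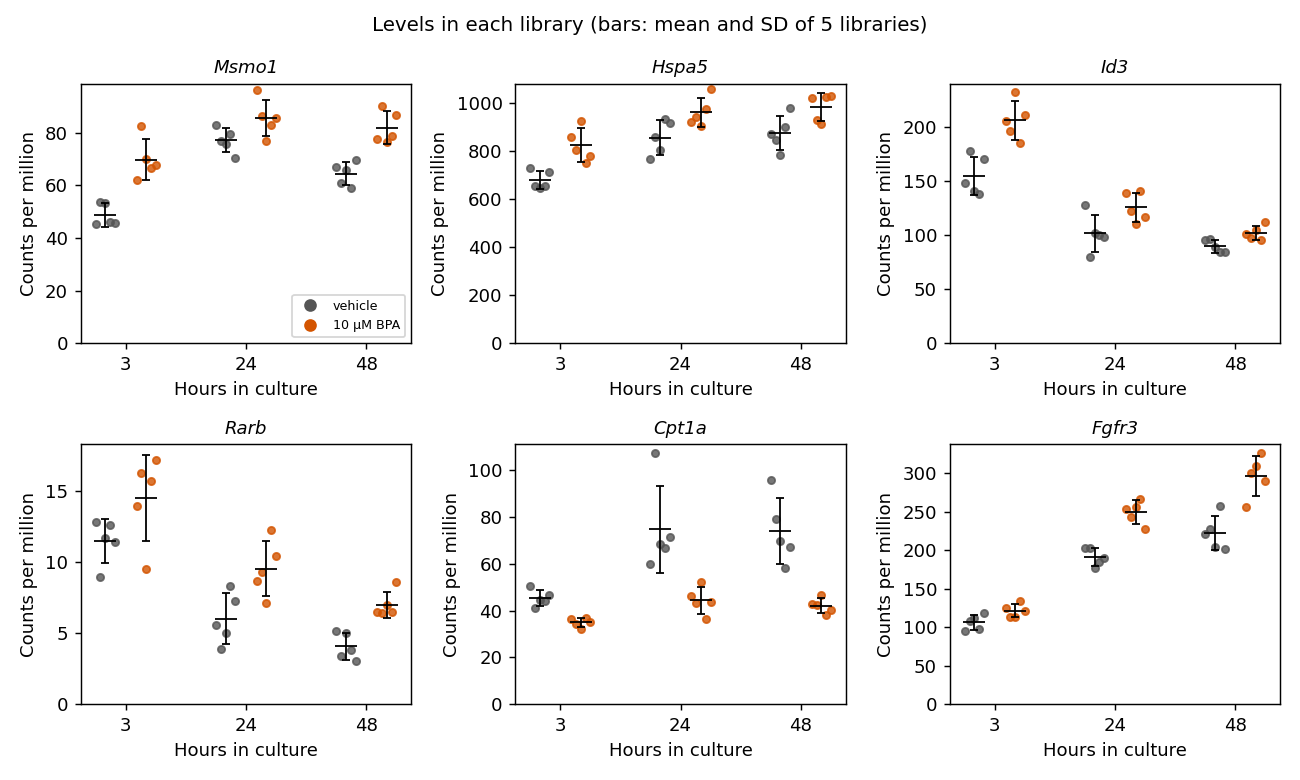
CPM of 6 called genes in each of the 30 libraries against hours in culture, vehicle in grey and 10 µM in orange, with the mean and SD of 5 libraries as black bars and each vertical axis starting at 0. Cpt1a is lower in all treated libraries at each time, whereas Hspa5, Id3 and Rarb show shifts of the mean with overlapping libraries at some times.

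Chaperones of the endoplasmic reticulum rose in 5 of 19 cases and none fell. Their list median was 0.15, and 17 of 19 had a positive log2 fold change. The 5 were Hspa5, the main HSP70 of the compartment (1.15-fold), Hyou1, its exchange factor (1.12-fold), Pdia6, a disulfide isomerase (1.11-fold), Creld2, a stress-induced disulfide isomerase (1.18-fold), and Manf, a secreted chaperone cofactor (1.18-fold). Txndc11, an endoplasmic reticulum thioredoxin that no list held and that is named after its values were seen, rose 1.13-fold.

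Hspa5 (chromosome 2, 34771970 to 34777547 in mm10, plus strand) held 729.9, 654, 648, 654 and 712 CPM in vehicle and 861, 806, 926, 751 and 780.1 CPM at 10 µM at 3 h. At 24 h the values were 767, 861, 804, 935 and 916 CPM in vehicle and 922, 942, 906, 974 and 1060 CPM at 10 µM, and at 48 h 871, 846, 784, 899 and 979.6 and 1022, 928, 914, 1024 and 1030 CPM. The groups did not overlap at 3 h and overlapped at 24 and 48 h. Its rise was 0.21 ± 0.04 on the log2 scale (edgeR adjusted p = 0.00398). Creld2 was at 34.9 ± 3.37 CPM in vehicle and 47.2 ± 6.01 CPM at 10 µM at 3 h, and at 49.6 ± 3.54 and 52.9 ± 4.02 CPM at 24 h. Its estimates of 0.44, 0.09 and 0.19 at the 3 times gave an unadjusted p of 0.0145 for a difference between times, which did not pass adjustment.

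The endoplasmic reticulum stress element, CCAAT and CCACG with 9 bases between them, is shown in the promoters of the 3 called chaperone genes that the promoter table held. Each line is the 250 bases before the RefSeq start site (GRCm38.p6, plus strand of the genome, 5′ to 3′) with the element in capitals. The windows are chr2:34771840-34772089 for Hspa5, chr15:88819396-88819645 for Creld2 and chr12:17266339-17266588 for Pdia6, and in Creld2 the element reads on the opposite strand.
Hspa5: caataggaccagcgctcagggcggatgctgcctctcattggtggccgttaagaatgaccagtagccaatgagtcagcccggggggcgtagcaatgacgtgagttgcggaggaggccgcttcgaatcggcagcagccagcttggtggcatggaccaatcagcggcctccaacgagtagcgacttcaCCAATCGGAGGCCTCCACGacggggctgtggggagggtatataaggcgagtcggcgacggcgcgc
Creld2: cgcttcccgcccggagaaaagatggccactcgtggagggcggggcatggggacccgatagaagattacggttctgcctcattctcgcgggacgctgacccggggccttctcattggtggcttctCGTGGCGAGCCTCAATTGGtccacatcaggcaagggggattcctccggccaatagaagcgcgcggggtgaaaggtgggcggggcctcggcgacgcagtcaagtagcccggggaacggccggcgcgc
Pdia6: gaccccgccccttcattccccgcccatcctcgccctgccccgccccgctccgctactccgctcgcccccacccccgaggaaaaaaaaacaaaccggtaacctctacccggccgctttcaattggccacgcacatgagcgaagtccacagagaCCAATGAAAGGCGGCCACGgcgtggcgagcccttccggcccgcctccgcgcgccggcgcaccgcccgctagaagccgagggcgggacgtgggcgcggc
On both strands the element occurred in 37 of 32851 windows (0.113%). It was in 3 of 3 called chaperone genes matched and in 4 of 12 uncalled ones, Calr, Canx, Dnajc3 and Hsp90b1. Its first part, CCAAT, is by itself the widespread CCAAT box.

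Other arms of the stress response gave no calls at this dose. Of 17 genes of protein disposal and stress sensing in the endoplasmic reticulum none was called, and Derl3, a disposal factor, lay just outside the threshold (log2 0.74 ± 0.18; edgeR adjusted p = 0.0513; 2.10 ± 0.588 CPM in vehicle and 3.98 ± 1.88 CPM at 10 µM at 3 h), and was the 1 gene of the list that DESeq2 called. None of 34 integrated stress response genes was called either (10 with an unadjusted p under 0.05, beside 6.28% of all genes tested, and 0 by DESeq2). Of their 34 estimates 33 were positive, beside 9249 of 18775 over all genes, with a median of 0.11. Ddit3, a transcription factor of prolonged stress, was at 0.18 (95% interval 0.02 to 0.35), Asns, the asparagine synthetase, at 0.12 (0.01 to 0.24) and Slc7a5, an amino acid transporter, at 0.15 (0.02 to 0.29). Of 16 heat shock genes and 24 NRF2 targets none was called by edgeR or DESeq2 (0 and 2 with an unadjusted p under 0.05), with medians of -0.01 and 0.01.

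BMP signalling genes rose in 5 of 28 cases and none fell, with a list median of 0.14. The ligand among them was Gdf5, a BMP-family factor of forming joints, which rose 1.27-fold. The others were targets and feedback inhibitors of the pathway: Id3 and Id2, inhibitors of helix-loop-helix factors (1.23- and 1.14-fold), Smad6, an inhibitory SMAD (1.21-fold), and Bambi, a decoy receptor (1.18-fold). The ligands Bmp2, Bmp4, Bmp5, Bmp6 and Bmp7 and the receptors Bmpr1a, Bmpr1b and Bmpr2 were not called by edgeR. DESeq2 called 6 genes of the list higher, Bmp4 being the addition, and 1 lower, the BMP antagonist Chrd. Id1 was at 0.15 ± 0.06 and Msx2, a homeobox target, at 0.37 ± 0.10, also without a call (edgeR adjusted p = 0.579 and 0.166).

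Id3 held 148, 178, 141, 138 and 170.3 CPM in vehicle and 206, 196, 233, 186 and 211 CPM at 10 µM at 3 h. At 24 h vehicle held 128, 79.7, 102, 101 and 98.95 CPM and 10 µM 139, 123, 110.5, 141 and 117 CPM, and at 48 h 95.7, 96.8, 89.3, 84.2 and 84.2 and 102, 97.6, 105, 95.6 and 112 CPM. The groups stood apart at 3 h and overlapped later, and in both arms the level was lower at 48 h than at 3 h. Id3 rose by 0.30 ± 0.05 on the log2 scale (edgeR adjusted p = 0.00266). Smad6 held 34.05, 33.5, 32.97, 31.5 and 34.2 CPM in vehicle and 36.1, 37.8, 39.3, 43.6 and 39.3 CPM at 10 µM at 24 h, without overlap, and its estimates of 0.25, 0.24 and 0.33 at the 3 times lay close together. Bmper, a BMP-binding protein, and Gdf10, a further BMP-family ligand, both in none of the lists and named after their values were seen, rose 1.17- and 1.25-fold.

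Genes that retinoic acid induces gave the largest rises. Of 20 measured genes of the pathway 4 rose and none fell, with a list median of 0.04. Among them were Rarb, a retinoic acid receptor, and Cyp26a1 and Cyp26b1, the hydroxylases that break retinoic acid down. The enzymes that make retinoic acid, Aldh1a1, Aldh1a2 and Aldh1a3, were not called by edgeR, at -0.25, -0.18 and -0.30, and DESeq2 called the fall of Aldh1a3.

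Rarb (chromosome 14, 16430839 to 16819156 in mm10, minus strand) held 12.8, 8.94, 11.7, 12.6 and 11.5 CPM in vehicle and 13.9, 16.3, 9.50, 15.7 and 17.2 CPM at 10 µM at 3 h. At 24 h it held 5.57, 3.89, 5.05, 8.37 and 7.25 CPM in vehicle and 8.65, 9.34, 7.10, 12.3 and 10.4 CPM at 10 µM, and at 48 h 5.16, 3.40, 5.01, 3.79 and 3.04 and 6.52, 6.44, 6.98, 6.48 and 8.61 CPM. The groups overlapped at 3 and 24 h and stood apart at 48 h. Rarb rose (log2 0.58 ± 0.11; edgeR adjusted p = 0.00387).

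Cyp26a1 had the largest rise of the comparison, 1.88-fold (log2 0.91 ± 0.16; edgeR adjusted p = 0.00266), at a low level. It held 5.29, 5.56, 6.69, 3.34 and 2.63 CPM in vehicle and 7.16, 8.62, 7.29, 5.42 and 5.79 CPM at 10 µM at 3 h, 2.81, 1.22, 1.53, 1.26 and 1.31 and 4.04, 2.17, 2.76, 2.95 and 3.32 CPM at 24 h, and 0.631, 0.532, 0.723, 0.587 and 0.386 and 1.12, 1.04, 1.79, 2.29 and 1.71 CPM at 48 h. The 48 h groups did not overlap, and the earlier ones did. Cyp26b1, the abundant hydroxylase of the limb, was at 166 ± 12.6 CPM in vehicle and 201 ± 4.93 CPM at 10 µM at 3 h and rose 1.29-fold over the times (edgeR adjusted p = 0.00123). Cyp26a1 and Rarb ran from 0.54 and 0.34 at 3 h to 1.48 and 0.78 at 48 h, and the edgeR test of a difference between times gave unadjusted p = 0.0723 and 0.213. Cyp26b1 was at 0.28, 0.42 and 0.41 at the 3 times in order. The median of all 20 genes of the list ran the other way, from 0.19 at 3 h to 0.09 at 24 h and -0.01 at 48 h.

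The retinoic acid receptor binds a repeat of GTTCA with 6 bases between the copies, and the promoters of Rarb and Cyp26a1 are shown because both hold that repeat close to the start site. Each line is the 250 bases before the RefSeq start site in the gene's own direction (GRCm38.p6, 5′ to 3′), chr14:16575477-16575726 on the minus strand for Rarb, whose RefSeq start lies inside the annotated span above, and chr19:37697558-37697807 on the plus strand for Cyp26a1, with the repeat in capitals. In Cyp26a1 it reads on the opposite strand.
Rarb: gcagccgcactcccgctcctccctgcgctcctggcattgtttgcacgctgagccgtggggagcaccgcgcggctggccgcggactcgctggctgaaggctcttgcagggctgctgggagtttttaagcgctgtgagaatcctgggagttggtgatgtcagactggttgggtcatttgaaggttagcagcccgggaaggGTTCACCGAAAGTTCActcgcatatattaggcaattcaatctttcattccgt
Cyp26a1: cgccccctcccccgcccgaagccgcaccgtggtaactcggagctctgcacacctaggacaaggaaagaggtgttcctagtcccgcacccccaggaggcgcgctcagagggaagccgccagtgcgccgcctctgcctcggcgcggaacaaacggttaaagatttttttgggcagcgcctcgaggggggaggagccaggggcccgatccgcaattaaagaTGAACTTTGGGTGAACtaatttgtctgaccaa
On both strands the repeat occurred in 22 of 32851 windows (0.067%), in 2 of 3 called retinoic acid genes matched and in 0 of 13 uncalled ones matched.

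**Figure D3:**
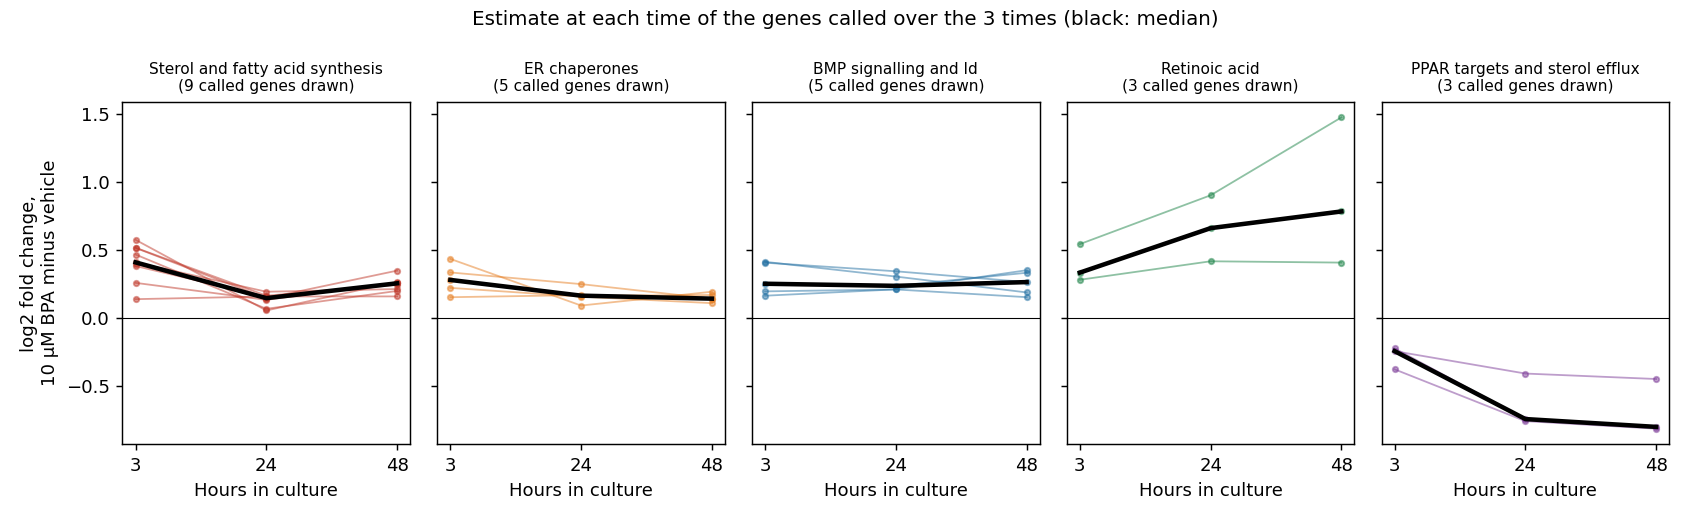
Log2 fold change (10 µM minus vehicle) at 3, 24 and 48 h of called genes of 5 groups (the number drawn is above each panel), a thin line per gene and the group's median in black. The median of the called genes drawn is highest at 3 h for the sterol and chaperone panels and at 48 h for the retinoic acid panel. The median of all 20 retinoic acid genes measured ran the other way (0.19, 0.09 and -0.01), and 0 genes passed the adjusted test of a difference between times.

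Among skeletal signals, Fgfr3 rose. Fgfr3, the FGF receptor that restrains cartilage growth, held 95.6, 108, 112, 97.2 and 119 CPM in vehicle and 125, 114, 114, 135 and 121 CPM at 10 µM at 3 h. At 24 h the values were 203, 203, 177, 185 and 190.3 CPM in vehicle and 254, 242.7, 257, 267 and 227 CPM at 10 µM, and at 48 h 221, 228, 204, 258 and 202 and 256, 301, 309, 326 and 289.8 CPM. The groups overlapped at 3 h, stood apart at 24 h, and touched at 48 h through 1 treated library. Fgfr3 rose 1.26-fold (log2 0.33 ± 0.04; edgeR adjusted p = 0.000114), and it was the 1 gene of 20 in the FGF list that edgeR called (list median -0.03). DESeq2 called a further one lower, Etv5, an FGF-responsive transcription factor named after its values were seen.

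Ihh, the Hedgehog ligand of prehypertrophic cartilage, went from 21.8 ± 2.81, 43.1 ± 5.43 and 40.1 ± 5.16 CPM in vehicle to 25.2 ± 2.97, 56.5 ± 9.76 and 49.4 ± 4.07 CPM at 10 µM at the 3 times. Its rise was 1.23-fold (log2 0.30 ± 0.06; edgeR adjusted p = 0.02), with overlapping groups at each time. Tbx2, a T-box factor of limb patterning, rose 1.25-fold. Of 16 genes of the joint interzone, the cell layer that becomes a joint, 2 rose and 2 fell, with a median of -0.02. The risers were Gdf5 and Wnt4, a Wnt ligand of joints (1.22-fold), and the genes that fell were Osr2, a zinc finger factor of joint formation (1.23-fold), and Trps1, a GATA-type repressor in cartilage (1.19-fold).

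Osr2 held 52.4, 46.6, 47.3, 47.96 and 45.9 CPM in vehicle and 35.6, 36.04, 39.1, 36.1 and 37.8 CPM at 10 µM at 24 h, and 51.5, 47.3, 46.9, 55.04 and 58.5 and 34.5, 34, 42.9, 41.2 and 39.5 CPM at 48 h, without overlap at either time. At 3 h its groups overlapped, with means of 42.8 ± 5.26 and 40.1 ± 3.95 CPM. The fall over the 3 times was -0.30 ± 0.05 on the log2 scale (edgeR adjusted p = 0.00266).

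Structural genes of cartilage and bone were not called at 10 µM, and for the abundant ones the intervals were narrow. Sox9, the regulator of cartilage, was at -0.03 (95% interval -0.14 to 0.07), Col2a1, its main collagen, at -0.01 (-0.09 to 0.08) and Acan, its main proteoglycan, at -0.02 (-0.13 to 0.08). Runx2 and Sp7, regulators of bone formation, were at 0.00 (-0.15 to 0.15) and 0.18 (0.06 to 0.30). The late genes were less precise, with Col10a1, the collagen of hypertrophic cartilage, at 0.05 (-0.29 to 0.40) and Ibsp, a mineral-binding protein, at 0.12 (-0.26 to 0.50). Of 28 cartilage matrix and Sox genes, Trps1 fell and none rose, 7 had an unadjusted p under 0.05 and 8 had a positive estimate. Over all 18775 genes tested, 1180 had such a p (6.28%) and 9249 had a positive estimate. The estimates of the cartilage list ran from -0.89 (95% interval -1.5 to -0.28) to 0.25 (0.07 to 0.43), both without a call. Of 24 hypertrophic and mineralisation genes, Ihh rose and none fell (5 with an unadjusted p under 0.05). Of 21 osteoblast genes none was called by edgeR (5 with an unadjusted p under 0.05) and 1, Dlx3, by DESeq2, named after its values were seen.

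Genes of the nuclear receptor pathways tied to bisphenol A were not called by edgeR. Of 22 estrogen receptor and estrogen-responsive genes 0 were called by edgeR, 4 had an unadjusted p under 0.05 (6.28% over all genes tested), and the median was 0.03. DESeq2 called 1 of them higher, Cxcl12, a chemokine, named after its values were seen. The receptors were scarce: Esr1 was at 1.42 ± 0.399 CPM in vehicle and 1.25 ± 0.303 CPM at 10 µM at 3 h, and Esr2 at 0.646 ± 0.112 and 0.748 ± 0.355 CPM. Esr1 was at -0.27 (95% interval -0.69 to 0.16), Esr2 at 0.46 (-0.08 to 0.99), Pgr, an estrogen-induced receptor, at 0.00 (-0.31 to 0.32), Greb1, an estrogen-induced coactivator, at 0.09 (-0.17 to 0.36), and Esrrg, an orphan receptor that binds bisphenol A, at -0.17 (-0.50 to 0.15). In the aryl hydrocarbon receptor list 0 of 9 genes were called by edgeR or DESeq2, with 1 at an unadjusted p under 0.05, and Cyp1a1, its classic target, was at 0.58 (0.20 to 0.96; edgeR adjusted p = 0.306).

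The remaining called genes held several signalling and surface molecules. Snai1, a zinc finger repressor of epithelial genes, held 50.7, 51.8, 52.6, 52.5 and 53.6 CPM in vehicle and 72.2, 62.4, 80.2, 66.1 and 72.8 CPM at 10 µM at 3 h, 58.3, 45.6, 57.1, 56.6 and 55.2 and 64.8, 62.6, 59.2, 71.5 and 60.8 CPM at 24 h, and 53.7, 51.2, 48.9, 50.4 and 52.4 and 54.1, 61.2, 59.96, 57.7 and 68 CPM at 48 h. All treated libraries lay above all vehicle libraries at each time, which no other gene of 18775 did (0.00533%), and Snai1 rose 1.23-fold (log2 0.30 ± 0.04; edgeR adjusted p = 0.000243). Eya2, a transcriptional coactivator with a phosphatase domain, and Spsb4, an adaptor of a ubiquitin ligase, both rose 1.35-fold. Hic1, a repressor of mesenchymal progenitors, Cpm, a surface carboxypeptidase, and Ephb2, an ephrin receptor, rose 1.27-, 1.26- and 1.16-fold, and Lepr, the leptin receptor, Cldn11, a tight junction protein, and Snx22, a sorting nexin, rose 1.28-, 1.28- and 1.29-fold.

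Besides the genes of lipid handling and joints, Ecm2, a matrix protein, Klf11, a Krüppel-like factor, and Zscan26, a zinc finger protein, fell 1.31-, 1.29- and 1.13-fold. Named after their values were seen, Scube1, a secreted EGF-domain protein, Heg1, a receptor of vessel and heart development, Gprc5c, an orphan receptor, Rassf2, a Ras-association protein, Pdp2, a phosphatase of pyruvate dehydrogenase, Rflna, an actin-binding regulator of cartilage, Thsd4, a matrix protein, Pkdcc, a secreted kinase of bone growth, Pitpnc1, a lipid transfer protein, and Chst3, a chondroitin sulfotransferase, rose between 1.13- and 1.25-fold.

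Markers of the other cell types in the limb bud gave no calls at this dose. Of 43 measured contractile genes of skeletal muscle none was called by edgeR or DESeq2 and none had an unadjusted p under 0.05, with a median of -0.08. The list median was 0.16, -0.22 and -0.13 at 3, 24 and 48 h. Contractile genes took 0.221 to 0.242% of counts in vehicle and 0.221 to 0.285% at 10 µM at 3 h, 0.442 to 0.804% and 0.434 to 0.664% at 24 h, and 0.644 to 0.963% and 0.492 to 0.819% at 48 h, with overlap at each time. None was called of 24 macrophage genes, 33 epidermal genes, 22 endothelial genes, 20 erythroid genes or 30 G2/M genes either (2, 0, 2, 2 and 0 with an unadjusted p under 0.05, and 0 by DESeq2 in each list). A p that misses the threshold does not show that these levels were equal. Krt14, the keratin of basal epidermis, varied widely between libraries in both arms, from 3.02 to 435 CPM in vehicle and from 6.48 to 321 CPM at 10 µM.

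Read at single times, few genes were called. A count of calls does not measure the size of an effect. In a fit with a mean for each group, 11 genes were called at 3 h (0.0586% of those tested), all higher, of which 9 are in the cholesterol list, Msmo1, Cyp51, Dhcr7, Sqle, Insig1, Nsdhl and Fdft1 among them, and the others were Snai1 and Creld2. At 24 h only Cpt1a was called (0.00533%). At 48 h 9 were called (0.0479%), Cpt1a and Osr2 lower (2 genes, 0.0107%) and Fgfr3, Ephb2, Gdf10, Scube1, Lepr, Ptpru and Mb higher (7 genes, 0.0373%). Fdft1, Ptpru and Mb are named after their values were seen and were not called over the 3 times. With the 10 libraries of each time fitted alone the counts were 0, 0 and 1, the 1 at 48 h being shared with the 9, and with DESeq2 they were 29, 12 and 36.

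No gene's effect was called as different between the times (0 of 18775 by edgeR with 2 degrees of freedom, 1052 at an unadjusted p under 0.05, and 1 by DESeq2). Among the 5 smallest p-values were those of Kcne1l, a potassium channel subunit, at 0.22, -0.47 and -0.28 at the 3 times in order, and Fgfr2, an FGF receptor, at -0.17, 0.21 and 0.21 (edgeR adjusted p = 0.825 for both). Of the 60 called genes 59 had the same sign at all 3 times, the exception being Thsd4, whose estimate was -0.01 at 3 h and 0.32 at both later times. Over all genes tested the share with a constant sign was 24.6%, and since the call itself pools the times, the count of 59 describes the choice.

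The higher dose shares the vehicle libraries with this comparison, so its values are given side by side. Its 3 h group is 3 h by title, although the time field of those 5 libraries reads 24 hours. Against vehicle, 50 µM gave 2776 calls among 18642 genes (14.9%), 1431 higher (7.68%) and 1345 lower (7.21%). For Cpt1a and Angptl4 the log2 fold changes at 50 µM were -0.68 and -0.53, beside -0.65 and -0.59 at 10 µM. For Abcg1 they were -1.15 beside -0.37, for Fgfr3 0.79 beside 0.33, for Scd1 0.75 beside 0.27, for Dhcr7 0.69 beside 0.31, for Hspa5 0.45 beside 0.21 and for Snai1 0.62 beside 0.30.

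The doses were also compared directly, in 45 libraries with time as a block, where 1212 of 19259 genes were called (6.29%), 529 higher (2.75%) and 683 lower (3.55%) at 50 µM. Among the 51 genes that rose at 10 µM, 26 were higher at 50 than at 10 µM and 0 lower, and among the 9 that fell 4 were lower at 50 than at 10 µM and 0 higher. The 10 µM libraries that chose these genes are part of this contrast. Abcg1 and Fgfr3 were among the 5 smallest p-values, at -0.78 (95% interval -0.94 to -0.62) and 0.46 (0.36 to 0.55). The other genes of that rank were mt-Rnr1, the small mitochondrial ribosomal RNA, Arrdc3, an arrestin-domain adaptor, and Slc7a1, a cationic amino acid transporter, at 0.91, 0.54 and 0.46, none of which was called at 10 µM against vehicle (0.15, 0.05 and 0.10).

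For Cpt1a the difference between the doses was -0.02 (95% interval -0.19 to 0.14; edgeR adjusted p = 0.923), and for Angptl4 0.05 (-0.15 to 0.25). Cyp26b1 was at 0.06 (-0.07 to 0.18), Tbx2 at -0.09 (-0.21 to 0.02), Trps1 at -0.04 (-0.15 to 0.07) and Chst3 at 0.04 (-0.03 to 0.11), also without a call. Across all muscle contractile genes, of which none was called at 10 µM, 28 of 43 were lower at 50 than at 10 µM.

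**Figure D4:**
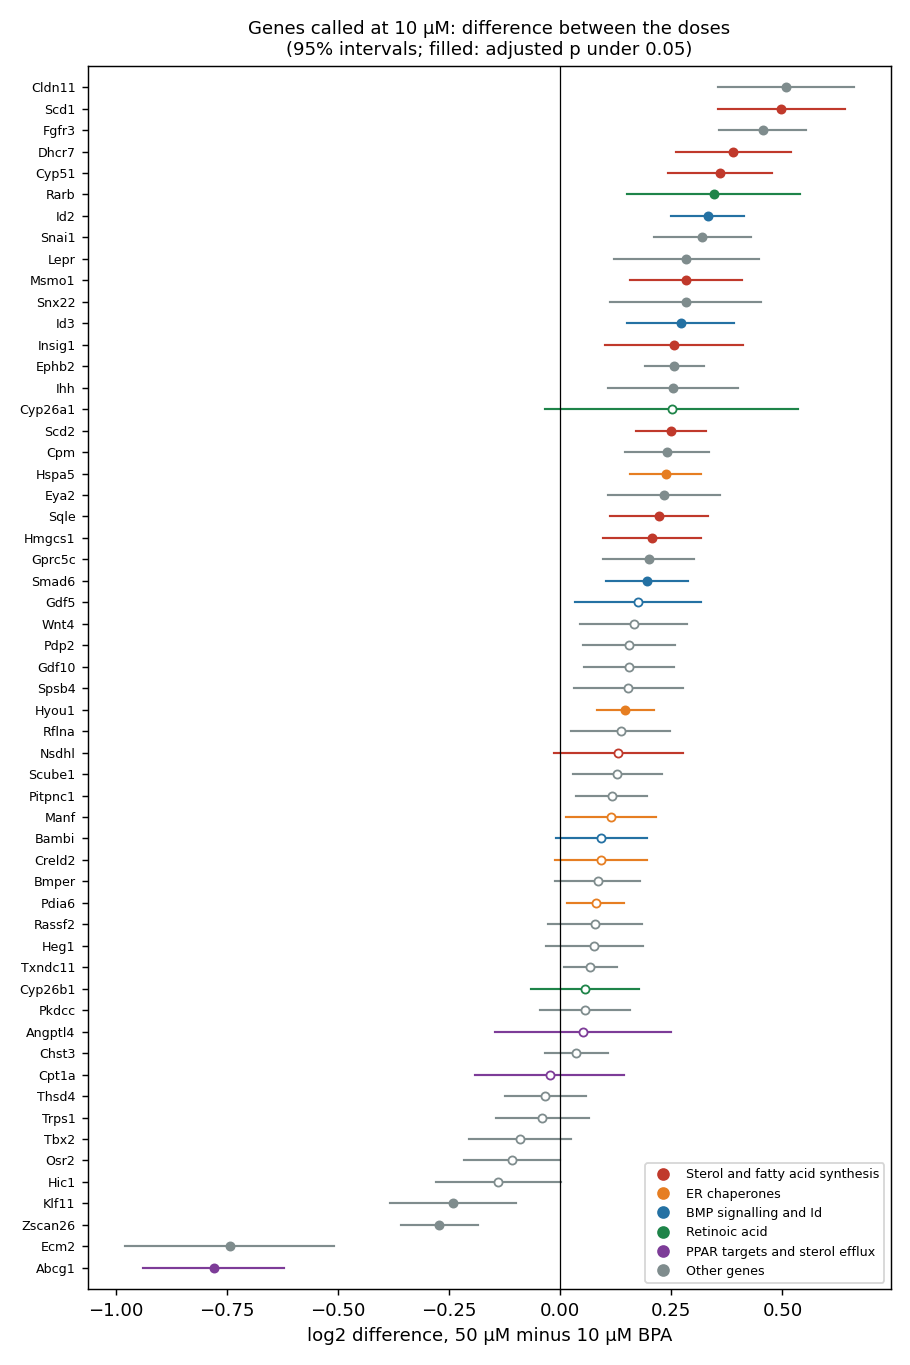
Each row is a gene called at 10 µM (56 of the 60 are drawn), and the point and line give the log2 difference of 50 µM minus 10 µM with its 95% interval, filled where the adjusted p is under 0.05 and coloured by gene group. Abcg1 and Ecm2 lie farthest below 0, Cldn11, Scd1 and Fgfr3 farthest above, and Cpt1a and Angptl4 lie around 0.

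Sex-linked genes differed between libraries. Ddx3y, a Y-linked helicase, lay between 53 and 94.1 CPM in the vehicle libraries and between 0 and 118 CPM at 10 µM, and Xist, the RNA of the inactive X chromosome, between 328 and 1150 CPM and between 2.18 and 2002 CPM. At 10 µM, 3 libraries stood apart: replicate 4 of 3 h with 0 CPM of Ddx3y, replicate 5 of 24 h with 0.144 CPM, and replicate 2 of 48 h with 2.18 CPM of Xist. Values near 0 go against the labels' mixed male and female cultures. No vehicle library had such a value, so sex make-up was not alike in the arms compared. Without these 3 libraries, 52 genes were called, 48 of them among the 60. Hmgcs1, Scd1, Scd2, Id2, Lepr, Klf11, Ecm2, Rflna, Pitpnc1, Pdp2, Thsd4 and the X-linked Nsdhl lost their call.

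**Figure D5:**
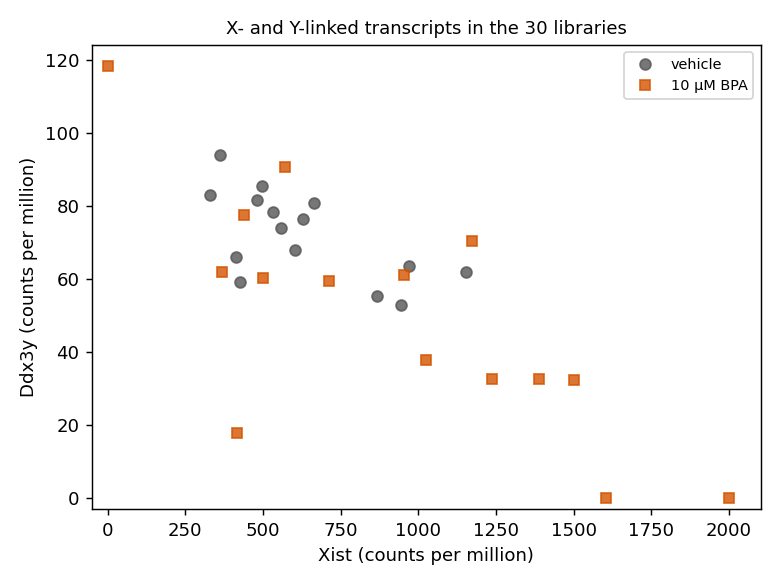
CPM of the Y-linked Ddx3y against CPM of the X-linked Xist in the 30 libraries, vehicle as grey circles and 10 µM as orange squares. The 15 vehicle libraries form a single cloud, and 3 treated libraries lie at its ends, 2 near 0 for Ddx3y and 1 near 0 for Xist.

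The number of called genes varied with the tool and with the libraries included. DESeq2 called 110, including all 60, and leaving out single libraries gave 50 to 88 calls, with 48 of the 60 called in each of the 30 fits. Leaving out a whole time gave 72 calls without 3 h (36 of them among the 60), 16 without 24 h and 6 without 48 h. Of the 60, 4 were called under every alternative, Cpt1a, Fgfr3 and Snai1 among them, and no named gene that was called changed sign in any fit. In simulated counts for these libraries (18775 genes), 59.7% of the 1.2-fold and 89.6% of the 1.5-fold changes were recovered, and 9 of 175 calls were false. The simulated libraries were independent, each change was the same at all times, and the changed genes had a mean count of at least 50. With 175 calls against 60 in the data, these rates describe the simulated setting only.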

How the data were processed

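RNA of cultured forelimb buds was sequenced as poly(A)-selected libraries from total RNA, per the labels' protocols, and the authors deposited 9 tables of pairwise comparisons. Each deposited table holds read counts per gene, a signal that the authors made by dividing the counts by 1 size factor per library, FPKM values, and the authors' own log2 fold change, p-value and adjusted p-value. Of these values only the counts were used. Per the submitters' processing notes the tools were CASAVA 1.8, STAR 2.5, HTSeq 0.6.1 and DESeq2 2 with genome build mm10; their settings and the strandedness of counting are not given in the sources used here. Reads of overlapping and antisense genes therefore cannot be told apart.

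The 9 tables were joined by gene ID to 36300 genes. Where tables repeat a library, 1345730 values were compared and 0 differed, 192120 entries absent from a table were set to 0, and 24 date-like symbols were set back to gene names. Gene type and position came from the deposited tables. The restored gene names came from GENCODE M21, which held 36282 of the IDs.

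Genes were kept by filterByExpr (minimum count 10, minimum total 15), scaled with TMM and tested with edgeR 4.0.16 in R 4.3.3 (glmQLFit and glmQLFTest) with time and dose as terms, 30 libraries and 26 residual degrees of freedom. Effects at single times and their difference came from 6 group means of the same 30 libraries. The doses were compared in all 45 libraries, and 50 µM against vehicle in its own 30. The SE was taken from the fold change and the F statistic. DESeq2 1.42.0 was an alternative. On counts simulated for independent libraries with a constant effect over the times, 9 of 175 calls were false. The counts are PCR-amplified reads, not independent molecules.

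The members and gene lists (48 lists) were chosen with earlier results of these data known. Most genes named are called genes with a mean count of at least 50 and a constant sign (up to 12 rises and 12 falls), the 10 of smallest p, or up to 6 called members per list. The rule also took preset key genes, the 5 of smallest p in the time and dose tests, and list extremes. Some others are marked as named after their values were seen. Tissue markers, promoter matches, Acadm, Cpt2, Chrd, the Aldh1a enzymes and the uncalled BMP ligands and receptors stand outside the rule without that mark. The replicate numbers in the titles were not used as a block in the main test, since no label ties a number to a shared litter or day and not every same-numbered pair of libraries deviated together. No pair of libraries within a group agreed within sampling noise (chi-square per degree of freedom 6.36 to 63.3 over 60 pairs), so none was treated as a copy of another. A few genes are not reported here by name; they stay in all counts and medians but not in the figures.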

Additional observations from a re-analysis of the deposited data

Results flagged for a closer look

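In 126 groups of 5 libraries (21 genes), 8 had a library farther from the others than Dixon's 95% limit, and chance gives about 1 in 20. Of these, 3 belong to vehicle replicate 2 of 24 h. It was high for Cpt1a at 107.4 CPM (others 60.01 to 71.7) and for Angptl4 at 95.36 CPM (44.95 to 58.55), and low for Snai1 at 45.65 CPM (55.17 to 58.31). Vehicle replicate 1 of 24 h was high for Cyp26a1 at 2.812 CPM (others 1.222 to 1.534) and for Cyp26b1 at 136.6 CPM (79.86 to 94.41). Replicate 1 of 48 h at 10 µM was low for Gdf5 at 40.14 CPM (45.71 to 47.36). Replicate 5 of 48 h at 10 µM was high for Rarb at 8.613 CPM (6.441 to 6.977), and vehicle replicate 5 of 3 h was high for Abcg1 at 18.27 CPM (15.85 to 16.54).

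Without vehicle replicate 2 of 24 h the log2 fold change of Snai1 over the 3 times was 0.28 (edgeR adjusted p = 0.000373).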

How the results depend on the processing

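Of the 60 calls over the 3 times, 48 held in each of 30 fits without 1 library, where the count ran from 50 (without replicate 4 of 24 h at 10 µM) to 88 (without replicate 3 of 3 h at 10 µM). DESeq2 called 110 genes, a threshold of 0.01 left 33, and the fits without the 24 h and without the 48 h libraries gave 16 and 6 calls. Counts stayed within 1.5 times of 60 with RLE (60) or upper-quartile scaling (65), no filter (53), a stricter filter (72), all 45 libraries (68), robust dispersion (69), an epidermal covariate (83), a Y-linked covariate (54), without the 3 h libraries (72) and, chosen after seeing the data, without the 3 libraries near 0 in Y-linked genes or Xist (52). A similar count did not mean the same genes. Without the 3 h libraries only 36 of the 60 were called, and the 72 calls were 49 higher and 23 lower. Of the 60, 53 were called with all 45 libraries and 48 with the Y-linked covariate. With the replicate block by title number 136 genes were called, 59 of the 60 among them, and with the block by library code 133, 58 among them. Libraries with the same title number correlated at 0.014 to 0.391 in their deviations (over 0.1 in 11 of 15 pairs), and 10 of 15 correlated best with their own number. By library code 12 of 15 pairs were over 0.1 and 12 of 15 correlated best with their own number. Either pairing is a hint from the data and not from the design. Codes and titles disagree for replicates 1 and 2 of 48 h at 10 µM. At 3 h (11 calls) the 10 libraries alone gave 0, the replicate block 0, DESeq2 29 and leaving out 1 library 9 to 16; at 24 h (1 call) these were 0, 95, 12 and 0 to 3, and at 48 h (9 calls) 1, 37, 36 and 1 to 9. The difference between times gave 0 calls with the block and 1 with DESeq2. The dose contrast (1212) ran from 940 to 1303 without 1 library and gave 1660 with the block, and 50 µM against vehicle (2776) ran from 2482 to 2858 and gave 3323 with the block. Of the named genes, 0 changed sign as a call in any fit. Among the genes called in fewest of the 30 fits were Zscan26 (7), Wnt4 (13) and Snx22 (13). The effect of depth on the calls was not tested.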

Other observations

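In the 24 h cultures the keratin Krt14 was highest in replicate 1 and lowest in replicates 4 and 5 of both arms, with 435.1, 69.64, 189.8, 15.19 and 19.1 CPM in vehicle replicates 1 to 5 and 320.8, 138.6, 133, 29.24 and 24.88 CPM at 10 µM. Of 33 epidermal genes 0 were called at 10 µM over the 3 times by edgeR, with 0 at an unadjusted p under 0.05.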
